A study of Saccharomyces cerevisiae with 32 samples.

Results

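The mitochondrial ribosomal protein genes of budding yeast were followed through the cell cycle. They were taken by name, as every gene whose standard symbol is MRPL, MRPS, MRP or RSM followed by a number, with no use of measured values. The rule found 67 genes, of which 66 had a probe and entered the tests, among 6205 genes tested in all. RSM28 was not analysed here. By the protein family in their RefSeq synonyms and a list of subunits, 38 of the 66 encode large subunit proteins and 27 small subunit proteins. MRP8 matches the rule by its symbol, was once taken for a mitochondrial ribosomal protein from its sequence, and was given no subunit.

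Cultures of 2 strains were held for 2 h in G1 by alpha-factor, a mating pheromone, then let go, and RNA was taken at 15 min intervals between 0 and 105 min. Strain YBL320 (WT) carried epitope-tagged wild-type transcription factors, namely HCM1-3HA and TOS4-3FLAG together with YOX1-3V5 and YHP1-13MYC. Strain YBL289 (4P, a phosphomutant per the labels) carried the same tags on mutant proteins, written as hcm1-15A-3HA and tos4-9A-3FLAG, along with yox1-9A-3V5 and with yhp1-13A-13MYC. Each of the 16 groups of genotype and time held 2 arrays. The other channel of all 32 arrays held RNA from the untagged strain MW836a, HCM1 TOS4 YOX1 YHP1, in asynchronous mid-log growth. Arrays that share strain and replicate number were taken as 1 time course, so that 4 courses were compared. Nothing in the labels says how many independent strains stood behind a genotype. Values below are the log2 of synchronised RNA over this reference, and each array was centred over all genes, so a member's ratio is relative to the other transcripts on that array. In RNA from a whole culture, more transcript per cell and more cells in the stage that makes it cannot be told apart.

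The mitochondrial ribosome translates the few messages of the mitochondrial genome, most of which encode core subunits of the respiratory chain and of the ATP synthase. Nearly all of its proteins are encoded in the nucleus, made in the cytosol and imported. Many of them descend from bacterial ribosomal proteins and others were added in the mitochondrial lineage. In yeast, messages for mitochondrial ribosomal proteins are known targets of the RNA-binding protein Puf3, and their transcripts are known to vary together with nutrient state and growth. Of the 66 genes, 41 belonged to a family shared with bacteria and 23 to a family named only in mitochondria. They lay on 14 chromosomes, and a single pair, MRPS12 and RSM19, were direct neighbours.

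Genes that mark the stages of the cycle were read first. FUS1, AGA1, ASG7 and FIG1, which are induced by pheromone, had their highest ratio at 0 min in WT and in 4P. The S-phase cyclin gene CLB6 was highest at 15 min in both and high again at 75 min, at 2.65 in WT and 2.90 in 4P. The histone genes HTA1 and HTB1 were highest at 30 min in both. The G1 cyclin gene CLN2 went from 1.49 at 75 min to 0.57 at 90 min in WT, and from 0.64 to 0.87 in 4P. The mitotic genes CLB2 and SWI5 stood at 0.63 and 0.38 at 90 min in WT, and at -0.015 and -0.48 in 4P. HTA1 and HTB1 stood at -0.54 and -0.072 at 75 min in WT, and at -0.94 and -0.51 in 4P. At 90 min they stood at 0.65 and 1.16 in WT, and at 0.61 and 1.48 in 4P. The strains thus read apart in CLN2, HTA1 and HTB1 at 75 min, and in CLB2 and SWI5 at 90 min. FUS1 and the mating type a gene BAR1 read -0.50 and -0.53 at 75 min in WT, and 0.21 and 0.36 in 4P. AGA1 went the other way at that time, with -1.50 in WT and -1.84 in 4P. The part of these marker differences in the members' values at 75 min was not tested. Of the mating type a markers, BAR1, STE2 and MFA1 were highest at 0 min. The alpha marker MF(ALPHA)1 was above background on 13 of 32 arrays, whereas STE3, the other alpha marker, was above it on all 32. The median signal over background in the synchronised channel ranged from 6.67 to 81.5. The 2 spots of a probe correlated at 0.525 to 0.987 within an array, lowest on the 4P array at 105 min of replicate 1. The 66 members were well above background on all 32 arrays. For 6 of them 1 array value was missing, 5 of these on the 4P array at 105 min of replicate 1, and the affected group mean rests on the other array. MRPL24 was saturated on 2 arrays.

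The median over the members was highest at 75 min in both strains and lowest at 45 min, and in WT alone it had a second, lower maximum at 15 min. In WT the median over the 66 members went from -0.13 at 0 min to -0.012 at 15 min, and then to -0.29 and -0.30 at 30 and 45 min. It was -0.14 at 60 min, 0.084 at 75 min, 0.065 at 90 min and -0.13 at 105 min. The medians thus stayed within 0.4 log2 units of each other in WT. In 4P the median was 0.029 at 0 min, 0.017 at 15 min, -0.095 at 30 min, -0.16 at 45 min and -0.073 at 60 min. It then stood at 0.46 at 75 min, 0.10 at 90 min and -0.060 at 105 min. The 75 min samples of 4P thus stood above the other 14 arrays of that strain, with array medians of 0.44 and 0.48. The WT arrays at 75 min had medians of -0.020 and 0.20, and the values of the 2 strains do not overlap there. Nor did the array medians overlap at 15, 30, 45, 60 or 90 min, with 4P above WT each time. At 30 min they were -0.29 and -0.28 in WT and -0.10 and -0.11 in 4P. The median over all genes lay between -0.0077 and 0.0069 in every group.

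**Figure D1:**
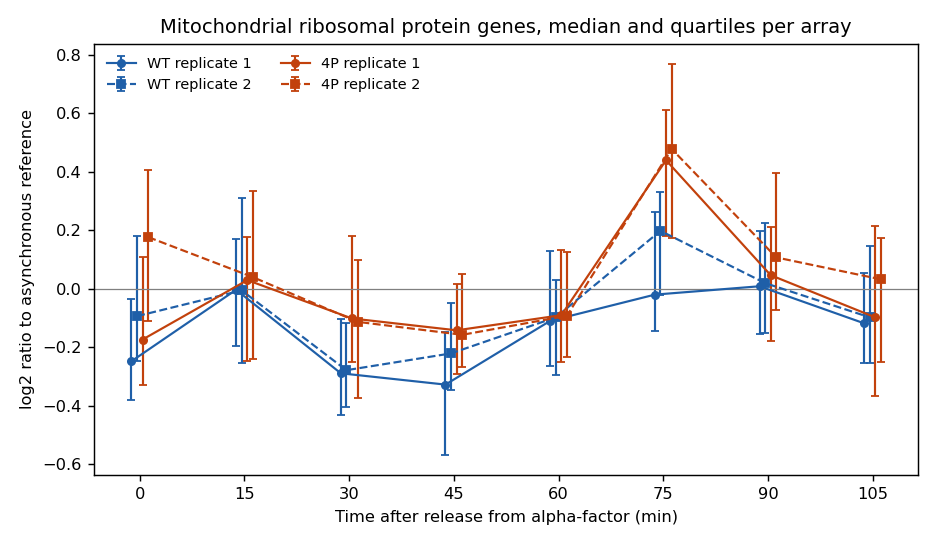
Median (point) and quartiles (bar) of the log2 ratio of the 66 mitochondrial ribosomal protein genes on each array, against time after release in min, with 1 line for each of the 4 time courses. The 4P arrays at 75 min, at 0.44 and 0.48, lie above all others, while the WT arrays at that time lie at -0.020 and 0.20.

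The time of the highest group mean was counted for each member. In WT, 34 of 66 members were highest at 75 min and 22 at 15 min, against 11.9% and 25.6% of all genes. In 4P, 53 of 66 were highest at 75 min, against 17.5% of all genes. Counted within single courses, 20 of 66 and 33 of 65 members were highest at 75 min in the WT courses, where 10.6% and 12.6% of all genes were. In the 4P courses these counts were 43 of 61 and 45 of 66, against 17.3% and 12.9% of all genes. In WT, 22 had their lowest mean at 30 min and 26 at 45 min, against 12.3% and 14.9% of all genes. In 4P these were 11 and 18, against 11.2% and 14.1%, and 16 were lowest at 105 min, against 14.2%. That last count rests on the array of poorest quality, since 21 of 61 members were lowest at 105 min in the first 4P course and 3 of 66 in the second.

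**Figure D2:**
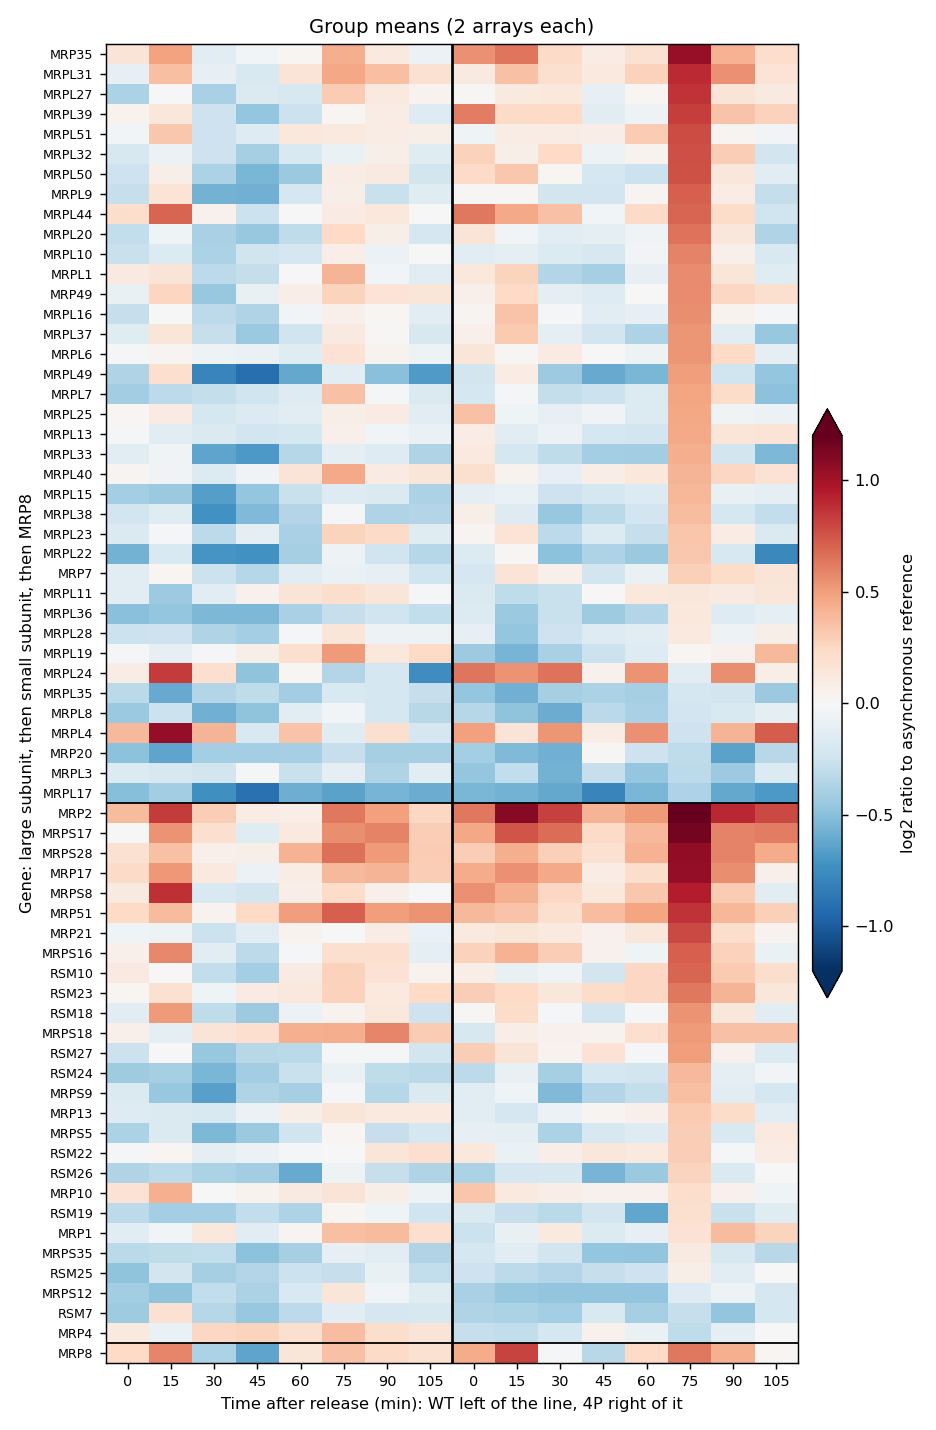
Group means (2 arrays each) of the log2 ratio to the asynchronous reference for the 66 genes (rows, large subunit, then small subunit, then MRP8, each ordered by the 4P mean at 75 min) at 8 times in WT and 4P (columns, in min). The 4P column at 75 min is above 0 in 56 of 66 genes, the WT column at 75 min in 42.

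Whether a member's level varied over the 8 times was tested with limma's moderated F test within each strain, adjusted by Benjamini-Hochberg over all genes. In WT 14 of 66 members passed (21.2%), against 35.6% of all genes. In 4P 38 passed (57.6%), against 40.4% of all genes. Of these, 13 passed in both strains, and MRPL40 passed in WT alone. With the scanner's own ratios, described below, 19 passed in WT and 16 in 4P. Whether the strains differ is tested separately below. With the replicate number as a block, which also takes out the dye orientation, the counts were 32 in WT and 48 in 4P. Without the WT array at 15 min of replicate 2 the WT count was 9. The 4P count was 23 and 17 without the first and the second array at 75 min.

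Among large subunit genes, 8 of 38 passed in WT and 25 in 4P. MRPL49 (YJL096W, family bL21m) had the largest range of these in both, 1.10 in WT and 1.11 in 4P, with adjusted p = 0.0020 and 0.0015 in limma's test. Its WT arrays read 0.087 and 0.31 at 15 min, -0.88 and -0.92 at 45 min, and -0.021 and -0.24 at 75 min. In 4P it read 0.087 and 0.090 at 15 min, -0.45 and -0.77 at 45 min, and 0.34 and 0.66 at 75 min. MRPL49 thus had its WT maximum at 15 min and its 4P maximum at 75 min, with replicates on the same side at each of these times. MRPL1 (uL1m), a protein of the stalk where tRNA leaves the ribosome, had a range of 0.72 in WT (adjusted p = 0.0065) and 0.96 in 4P (adjusted p = 0.000207). Its arrays at 75 min stood at 0.28 and 0.53 in WT and at 0.60 and 0.54 in 4P, and those at 30 min between -0.42 and -0.29 in both strains. MRPL44 (mL53) ranged over 0.96 in WT (adjusted p = 0.047), highest at 15 min with 0.55 and 0.85. The WT call was lost in 19 of 32 fits that each left out 1 array, with adjusted p up to 0.34 without the second array at 15 min. In 4P its range was 0.94 (adjusted p = 0.013), highest at 75 min with 0.61 and 0.79.

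MRPL22, MRPL50 and MRPL20 were among the 6 members of largest range in 4P. MRPL22 (uL22m), which lines the tunnel for the growing chain, ranged over 1.09 in 4P (adjusted p = 0.021), from 0.29 and 0.35 at 75 min to -1.13 and -0.41 at 105 min. Its lowest value is thus on the array with the poorest duplicate spots, and without the 2 arrays of that slide the range was 0.81 with adjusted p = 0.082. The call was also lost without either 4P array at 75 min (adjusted p = 0.066 and 0.080). MRPL50 (bL9m) read 0.55 and 0.98 at 75 min in 4P, against -0.34 and -0.19 at 60 min (range 1.03, adjusted p = 0.020, and 0.15 without the second of these arrays at 75 min). MRPL20 (mL58) read 0.56 and 0.74 at 75 min in 4P, and its WT arrays at that time disagreed, at -0.079 and 0.56. Its range over time was 1.02 in 4P (adjusted p = 0.0100, and 0.096 without the second array at 75 min) and 0.69 in WT (adjusted p = 0.057).

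Small subunit genes passed in 5 of 27 cases in WT and 12 in 4P. MRPS8 (uS8m), which binds the body of the small rRNA, ranged over 1.09 in WT (adjusted p = 0.018) and 1.07 in 4P (adjusted p = 0.032). Its WT arrays stood at 0.65 and 1.10 at 15 min, and at -0.20 and -0.24 at 45 min. In 4P its 15 min arrays disagreed, at 0.028 and 0.82, and the 75 min arrays read 0.83 and 1.06. The WT call was lost without the second array at 15 min (adjusted p = 0.27). The 4P call was lost without either array at 75 min, the second at 45 min or the first at 105 min (adjusted p up to 0.17). MRP2 (uS14m) ranged over 0.75 in WT (adjusted p = 0.031) with arrays of 0.67 and 1.00 at 15 min, and over 0.91 in 4P (adjusted p = 0.0096). Its WT call was lost without the first array at 45 min or the second at 15, 60 or 75 min (adjusted p up to 0.15). RSM7 (uS7m), which sits in the head of the small subunit, had 0.11 and 0.25 at 15 min in WT against -0.29 and -0.57 at 0 min. The difference of 0.61 ± 0.16 (SE, n = 2 arrays a group) passed limma's contrast at adjusted p = 0.011, together with that of MRPS8 (0.77 ± 0.24, adjusted p = 0.027). These 2 were the members called at 15 against 0 min in WT, 3.03% of the 66 where 9.15% of all genes were called higher, and 4P had none called where 14.5% of all genes changed. With a replicate block the WT count was 9. It was 1 and 5 without the first and second WT array at 0 min, and 4 and 0 without the first and second at 15 min. At 60 against 0 min no member was called in WT, where 6.74% of all genes were, and in 4P MRPL39 fell by 0.67 (adjusted p = 0.023), where 4.87% of all genes were called lower. That count was 2 with a replicate block, 8 without the first 4P array at 0 min, and 0 without the second or without either 4P array at 60 min.

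MRP8 had the largest range of all members that passed, 1.22 in WT and 1.14 in 4P, with adjusted p = 2.28e-05 and 4.97e-05 in limma's test. Its WT arrays read 0.60 and 0.57 at 15 min, -0.71 and -0.56 at 45 min and 0.36 and 0.33 at 75 min. In 4P they read 0.78 and 0.83, -0.35 and -0.32, and 0.77 and 0.50 at the same times. Its 2 replicates lay close together at 15 and 45 min, and in both strains the maximum was at 15 min.

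The 75 min time was then set against the mean of 60 and 90 min of the same strain. This comparison was added after the data had been seen, and in each of the 4 courses the 3 times lay on 1 slide. In 4P, 30 of 66 members (45.5%) were higher at 75 min in limma's contrast, where 6.54% of all genes were called higher, and none was lower, where 2.76% were. With the scanner's own ratios, described below, the counts were turned round, at 1 in 4P and 19 in WT, and with the deposited values they were 1 and 20. The median difference over the members was 0.48, positive in 63 of 66, against -0.00021 over all genes. In WT the median was 0.16, positive in 58 of 66, and none was called, where 2.76% of all genes were called higher. The lowest adjusted p in WT was 0.074, for MRPL1. Without the first or second 4P array at 75 min the 4P count was 9 or 4, and without the first 4P array at 90 min it was 12. It was 39 with the replicate number or the slide as a fixed block, where WT had 1 and 0.

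The members called in 4P at 75 min covered both subunits, 20 of 38 large and 10 of 27 small subunit genes. MRPL27 (YBR282W, mL41) had the lowest adjusted p in this contrast, 0.0020, with a difference of 0.78 ± 0.15 (SE, n = 2). Its 4P arrays read 0.14 and -0.091 at 60 min, 0.87 and 0.86 at 75 min, and 0.029 and 0.28 at 90 min. In WT the same gene read 0.091 and 0.51 at 75 min, below both 4P arrays. MRPL49 had the largest difference, 0.89 ± 0.17 (adjusted p = 0.0020). Of small subunit genes, MRPS28 (uS15m) read 1.15 and 0.99 at 75 min in 4P, against 0.30 to 0.63 on its 4 flanking arrays. Its difference was 0.57 ± 0.12 (adjusted p = 0.0034). RSM19 (uS19m), in the head of the small subunit, differed by 0.64 ± 0.16 (adjusted p = 0.014), whereas its neighbour on the chromosome, MRPS12 (uS12m), differed by 0.11 ± 0.18 (adjusted p = 0.73). MRP7 (bL27m), which lies near the peptidyl transferase centre, differed by 0.22 ± 0.13 (adjusted p = 0.32), with 0.24 and 0.34 at 75 min. MRPL27 and MRPS28 were picked from these values, outside the rule for named genes.

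**Figure D3:**
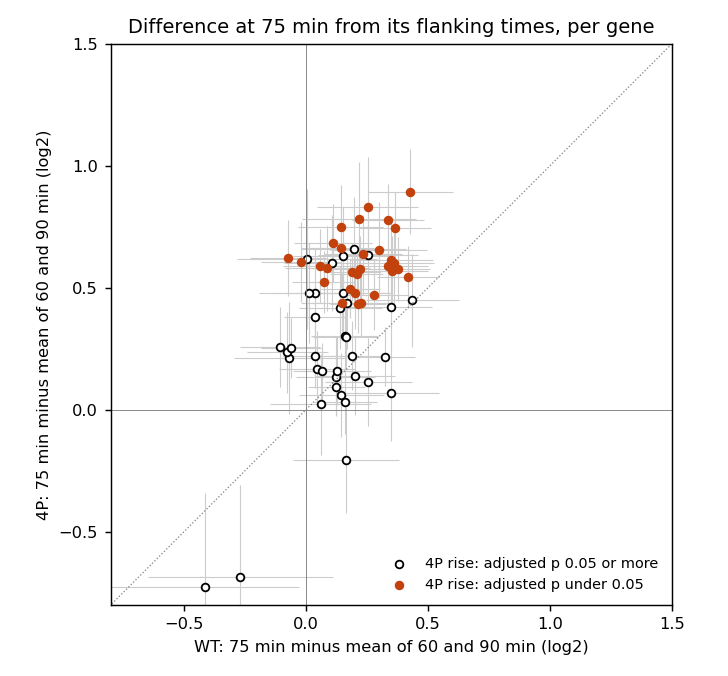
Difference between 75 min and the mean of 60 and 90 min (log2) for each of the 66 genes in WT (x axis) and 4P (y axis), with standard errors. Filled points are the 30 genes with adjusted p under 0.05 in 4P. Most points lie above the dotted line of equal differences, and the median is 0.16 in WT and 0.48 in 4P.

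That the difference at 75 min was larger in 4P than in WT was itself tested as an interaction. The median of this difference between strains was 0.28 over the members, positive in 55 of 66, against 0.0089 and 51.4% over all genes. No member passed, and 0 of the 6205 genes did (lowest adjusted p of a member 0.735 in limma's test). At an unadjusted p under 0.05 there were 10 members and 319 genes. The largest interaction was that of MRP21, 0.70 with adjusted p = 0.74. Blocking on the replicate number, 0 members and 1 gene passed, and blocking on the slide, 0 members and 4 genes. Taken gene by gene, a larger difference at 75 min in 4P than in WT was therefore not detectable with 2 courses a strain.

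At 75 min 4P stood above WT for most members. The median difference 4P minus WT was 0.38, positive in 53 of 66, against 0.0012 and 50.1% over all genes. In limma's contrast 8 members were higher in 4P (12.1%), where 2.68% of all genes were, and none was lower, where 2.30% were, so that 4.98% of all genes were called in either direction. Both 4P arrays lay above both WT arrays in 45 of 66 members (68.2%), against 30.1% of all genes, and below in 6, against 27.8%. All 8 called members were also among the 30 called against 60 and 90 min within 4P. Both comparisons use the same 4P arrays at 75 min, so this overlap is partly built in.

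Of the 8, MRPL32, MRPL39, MRP35 and MRPL15 belong to the large subunit. MRPL32 (YCR003W, bL32m), which the m-AAA protease trims in the mitochondrial matrix, read 0.77 and 0.78 in 4P and -0.090 and -0.062 in WT. The difference was 0.85 ± 0.19 (SE, n = 2), with adjusted p = 0.023. MRPL39 (YML009C, bL33m) read 0.86 and 0.79 in 4P and -0.0047 and 0.054 in WT, a difference of 0.80 ± 0.18 (adjusted p = 0.026). Replicates of both genes thus differed by less than 0.1 while the strains differed by over 0.7. MRP35 (bL35m) read 1.03 and 1.05 in 4P and 0.42 and 0.45 in WT (0.61 ± 0.17, adjusted p = 0.046). MRPL15 (mL57), which has an RNase III-like fold, read 0.27 and 0.52 in 4P and -0.27 and -0.028 in WT (0.55 ± 0.15, adjusted p = 0.043).

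The other 4, MRP21, MRP2, MRP17 and RSM24, belong to the small subunit. MRP21 (YBL090W, bS21m) read 0.68 and 0.91 in 4P and -0.018 and 0.0015 in WT, a difference of 0.80 ± 0.18 (adjusted p = 0.023). MRP2 (YPR166C) read 1.10 and 1.54 in 4P and 0.56 and 0.72 in WT, a difference of 0.68 ± 0.20 (adjusted p = 0.046), a call lost in 20 of 32 fits without 1 array. The 4P arrays lay above the WT arrays for both genes. MRP17 (bS6m) read 0.96 and 1.14 in 4P and 0.50 and 0.29 in WT (0.66 ± 0.19, adjusted p = 0.048). RSM24 (mS35) read 0.49 and 0.28 in 4P and -0.035 and -0.13 in WT (0.47 ± 0.13, adjusted p = 0.042). MRP35, MRPL15, MRP17 and RSM24 complete the count and were not among those the naming rule picked for this contrast.

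**Figure D4:**
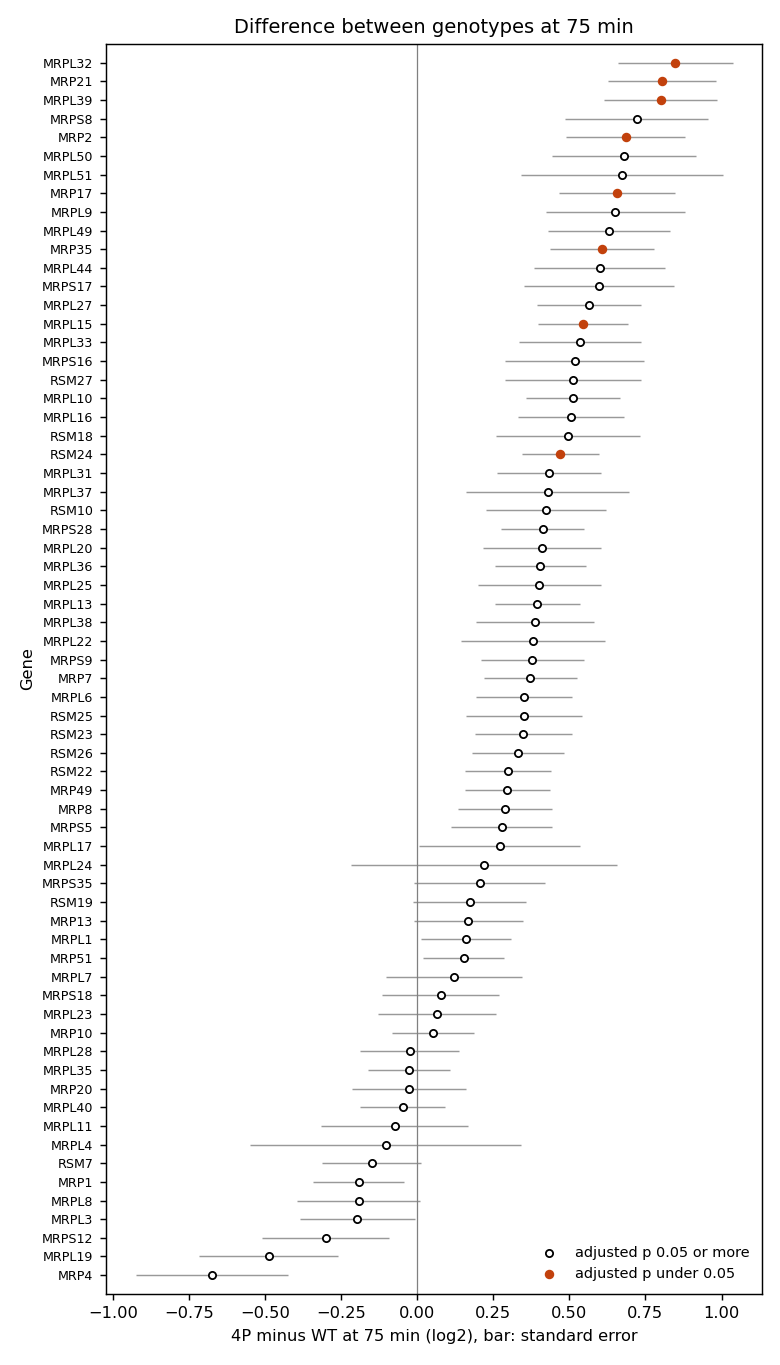
Difference 4P minus WT at 75 min (log2, with its standard error) for each of the 66 genes, ordered by size. The 8 filled points have adjusted p under 0.05, and 13 genes lie below 0.

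The count at 75 min rested on few arrays and on the treatment of the replicates. It was 0 when any 1 of the 4 arrays at 75 min was left out. It was 3 or 5 without any 1 of the WT arrays at 30, 45, 60 or 90 min, or of the 4P arrays at 30 or 45 min. With a replicate block 23 members passed. Genotype and slide largely coincided: at 75 min the 4 arrays lay on 4 different slides. With slide as a fixed block no member passed and the median difference was 0.34, and as a random block 6 passed with a median of 0.36. The synchronised channel was also brighter in 4P at this time, with a median signal over background of 81.5 and 36.3 against 42.3 and 19.9 in WT, and its part in the result was not tested. The WT array at 45 min of replicate 1, at 65.5 the brightest WT array, had a member median of -0.33. WT members had their lowest median at 45 min, so brightness and time cannot be told apart on that array.

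The scanner's own ratios gave other counts. On 9 of the 32 arrays, both WT arrays at 75 min among them, the scanner's processed signal of a single channel differed from its background-subtracted signal by a factor that varied between spots of equal brightness (SD over 0.2 in log2 units). The duplicate spots of these 9 arrays correlated at 0.257 to 0.692 in the scanner's ratio, and at 0.909 to 0.984 in the ratio used here, which starts from median signals. No 4P array at 60, 75 or 90 min had such a factor in either channel. Their duplicate spots correlated at 0.881 to 0.974 in the scanner's ratio. The cause of the lower 4P count against 60 and 90 min with the scanner's ratios was not tested. With the scanner's ratios 15 members were called at 75 min between strains. The array medians over the members were little changed, at 0.026 and 0.16 in WT and 0.45 and 0.50 in 4P. MRPL39 no longer differed between strains by that ratio (0.17, adjusted p = 0.64).

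At the other 7 times no member was called between strains by limma, where the share of all genes called was 0.113% at 0 min, 0.113% at 15 min, 0.0967% at 30 min and 0.161% at 45 min. It was 0.451% at 60 min, 0.0322% at 90 min and 0.371% at 105 min. At an unadjusted p under 0.05 there were 7, 5, 10, 2, 1, 1 and 6 members at these times in order, and 473, 887, 777, 316, 321, 401 and 529 of all 6205 genes. The median difference 4P minus WT was 0.16 at 0 min, 0.19 at 30 min and 0.16 at 45 min, and between 0.026 and 0.077 at 15, 60, 90 and 105 min. Both 4P arrays lay above both WT arrays in 40 of 66 members at 30 min, against 27.6% of all genes, and in 34 of 66 at 45 min, against 19.5%. At 0, 15 and 60 min they lay above in 18 of 65, 14 and 21 members, against 16%, 18.3% and 17.4% of all genes. At 90 and 105 min these were 18 and 10 of 61, against 19.4% and 14.7%. Both 4P arrays lay below both WT arrays in 4, 7, 5 and 4 members at 0, 15, 30 and 45 min, against 14.8%, 15.7%, 27.8% and 22.7% of all genes. At 60, 90 and 105 min they did in 11, 3 and 3, against 18.5%, 18% and 14%. Over the whole course, with each course's mean as 1 value, the median difference was 0.13, positive in 55 of 66 members, against -0.00087 and 49.7% over all genes. None of the members passed this test (lowest adjusted p 0.43), where 0.0161% of all genes did. At an unadjusted p under 0.05 there were 7 members and 673 genes.

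A test for any difference between strains over the 8 times found 4 members (6.06%), MRPL39, MRP2, MRPL32 and MRPL15, where 5.04% of all genes passed. Their adjusted p values in limma's F test were 0.021, 0.028, 0.038 and 0.042. The share of members is close to that of all genes. Blocking on the replicate number gave 14, and a fixed or random slide block gave 0. It was 0 without the first WT or the second 4P array at 75 min, and 8 without the first 4P array at 0 min. It was 1 or 2 without any 1 of the WT arrays at 30, 60 or 90 min or the 4P arrays at 30 or 45 min of either replicate. The same held for the WT arrays at 45 min of replicate 1 and 105 min of replicate 2, and the 4P arrays at 75 min of replicate 1 and 90 min of replicate 2.

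A difference that depends on time was not called for any member by limma's F test (0 at an unadjusted p under 0.05), and for 5 of all genes (0.0806%, 253 at an unadjusted p under 0.05). The members with the smallest unadjusted p there were MRPS8 (0.056), RSM7 (0.064), MRPL32 (0.080) and MRPL44 (0.11). For RSM7 the 15 min arrays stood at 0.11 and 0.25 in WT and at -0.42 and -0.34 in 4P. That difference of -0.57 did not pass (adjusted p = 0.14).

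The members moved together to a large degree, although not all of them did. The correlation of a member's 16 group means with the mean course of the other members had a median of 0.80, and was above 0.5 in 53 of 66. These points share arrays, reference and normalisation, so the value is a description. It was below 0 for MRP4 (-0.55), MRPL3 (-0.29), MRPL4 (-0.18) and MRP20 (-0.065). MRP4 (uS2m), on the back of the small subunit, read -0.26 and -0.35 at 75 min in 4P and 0.47 and 0.27 in WT, the opposite order to the members called there. Its difference of -0.67 ± 0.25 had adjusted p = 0.11. MRPL3 (mL44), like MRPL15 a protein with an RNase III-like fold, read -0.35 and -0.27 at 75 min in 4P and 0.086 and -0.32 in WT. MRP20 (uL23m), which forms part of the rim of the tunnel exit, read -0.35 and -0.26 in 4P and -0.35 and -0.20 in WT. None of these 3 passed a test over time in either strain.

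The replicates of MRPL4 and MRPL24 disagreed widely. MRPL4 (uL29m), also at the tunnel exit, read 1.11 and -0.12 at 0 min in 4P and 0.54 and 1.56 at 15 min in WT. MRPL24 (bL28m) read 0.040 and 1.63 at 15 min in WT and 1.10 and 0.019 at 90 min in 4P. The first of these, and its first WT array at 30 min, were saturated. Their ranges in WT, 1.25 and 1.58, were the widest of large subunit genes and passed no test (adjusted p = 0.24 and 0.11). Their differences of 75 min from 60 and 90 min in 4P were -0.73 ± 0.39 and -0.69 ± 0.38 (adjusted p = 0.26 and 0.28). Together with MRP4 they are the 3 members with a negative difference there. MRPL24 was chosen after its values were seen.

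At 0 min in WT the ratios to the reference were highest for MRPL4 (0.39), MRP2 (0.38) and MRP51 (0.24, bS1m), and lowest for MRPL22 (-0.57), MRPL17 (-0.51, mL46) and MRPL36 (-0.50, bL31m). Each compares a gene with its own level in asynchronous cells, not with another gene. MRP51 read 0.23 and 0.25 at 0 min and 0.64 and 0.79 at 75 min in WT, and 0.92 and 0.82 at 75 min in 4P. It rose from 0 to 75 min in both strains, by 0.47 ± 0.13 in WT and 0.48 ± 0.13 in 4P (adjusted p = 0.019 and 0.017). In all, 7 members rose over that span in WT and 20 in 4P, against 8.67% and 9.25% of all genes, a comparison added after the data had been seen. With the scanner's ratios these counts were 17 and 4. The WT count was 13 with a replicate block, 1 without the first array at 0 min or the second at 75 min, and 4 without the second at 0 min. The 4P count was 5 without the first array at 0 min, and 12 and 7 without the first and second at 75 min. MRPL36, MRPL13 (mL50) and MRPL25 (mL59) had the smallest ranges in WT, 0.30, 0.30 and 0.31, of which that of MRPL13 rests on 1 array at 0 min. In 4P they ranged over 0.57, 0.68 and 0.64, and MRPL36 and MRPL13 passed the test over time there (adjusted p = 0.045 and 0.0054). The range was larger in 4P than in WT for 47 of 66 members, with medians of 0.78 and 0.60, against 0.63 and 0.61 over all genes.

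Large and small subunit genes were also summarised apart. The median difference 4P minus WT at 75 min was 0.39 for large and 0.35 for small subunit genes, with 4 called in each. The median difference of 75 min from 60 and 90 min in 4P was 0.49 for large and 0.47 for small subunit genes. At 75 min in 4P the families shared with bacteria had a median ratio of 0.50 and the mitochondrial families 0.40.

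Other genes of mitochondrial gene expression were taken from lists by function. Those named below were picked after their values were seen, to complete small counts. The 13 proteins of the mitochondrial ribosome with other names had 4 called higher at 75 min against 60 and 90 min in 4P, with a median of 0.38. These were MNP1 (0.62), IMG2 (0.57), RML2 (0.51) and NAM9 (0.44). None of the 13 was called between strains at 75 min, and their median difference was 0.16. Of mitochondrial tRNA synthetases 2 of 14 were called higher in 4P at 75 min (MSE1 and MSF1), and of translation factors 1 of 8, RRF1, the mitochondrial ribosome recycling factor. Among 14 translational activators 2 were called, PET54, which acts on COX3 and COX1 expression, and CBP6, a cytochrome b translation factor. CBP6 was also higher in 4P than in WT at 75 min (0.76 ± 0.18, adjusted p = 0.027). No gene of the 8 listed for assembly of the mitochondrial ribosome was called.

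The same comparison was made outside mitochondrial translation. Of 33 nuclear genes for the respiratory chain and ATP synthase 1 was called higher at 75 min against 60 and 90 min in 4P, ATP20, with a median over the list of 0.26. Their median difference between strains at 75 min was 0.044. Over time, 12 and 20 of the 33 varied in WT and 4P, where 35.6% and 40.4% of all genes did. Of 28 genes listed for import 2 were called (MGE1 and TIM12), with a median of 0.096. That list also holds TIM11, which encodes a subunit of the ATP synthase. MGE1 was also higher in 4P than in WT at 75 min in limma's contrast (0.72, adjusted p = 0.042). The 131 cytosolic ribosomal protein genes had 2 called (RPL27B and RPL40A), with a median of 0.072. Between strains at 75 min 4 of them were higher in 4P (RPL27B, RPS23A, RPS25B and RPL41B) and 1 lower (RPS11A). Many of these probes were saturated, 53 on at least 1 array and 37 on 16 or more of the 32, and a saturated ratio is no full measure of the difference. The 78 saturated on no array, set apart after the data had been seen, had a median of 0.043 and 0 called by limma against 60 and 90 min. In the lists for the respiratory chain and ribosome biogenesis 1 gene each was saturated on an array. Of 21 genes for cytosolic ribosome biogenesis none was called higher and 2 lower (NUG1 and ERB1), with a median of -0.19. Of 9 regulators none was called at 75 min against 60 and 90 min, and their median was -0.27. SFP1, which controls ribosome genes, was lower in 4P than in WT at 75 min by -0.64 (adjusted p = 0.043). The message for Puf3 itself was not called at 75 min against 60 and 90 min in 4P (-0.76, adjusted p = 0.42) or between strains (-0.29, adjusted p = 0.82). The share called was 6.54% of all genes, and no list was tested as a set. In WT none of the members or listed genes was called in this comparison, where 2.76% of all genes were called higher. The WT median was 0.16 for the members and 0.20 for the respiratory chain. It was 0.19 for the other-named proteins of the mitochondrial ribosome and 0.17 for translation factors. In the remaining lists it was lower than for the members, between -0.16 and 0.14.

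**Figure D5:**
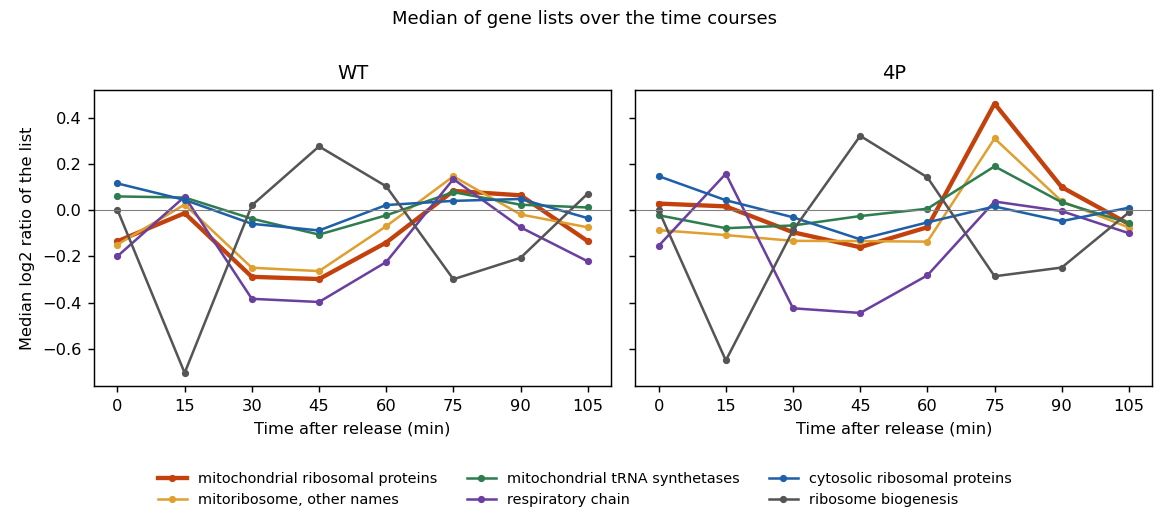
Median log2 ratio of 6 gene lists against time after release (min) in WT (left) and 4P (right), each point the median over the list of group means. At 75 min in 4P the mitochondrial ribosomal proteins stand at 0.46 and the other-named proteins of that ribosome at 0.31, with the respiratory chain at 0.038 and the cytosolic ribosomal proteins, of which 53 of 131 were saturated on some array, at 0.017.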

How the data were processed

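The 32 samples were hybridised to 2-colour Agilent arrays after linear amplification of total RNA, per the labels' protocols, with the synchronised RNA in Cy3 in replicate 1 and Cy5 in replicate 2. Spots were quantified in Agilent Feature Extraction (version 10.7.1.1 in the submitters' processing notes). The files give each channel's intensity, and a log10 ratio with red as numerator, per the file headers. The deposited table of the series holds log2 values with array medians of -0.04 to 0.02. Its columns ran as synchronised over reference and correlated with the scanner ratio of the same array at 0.961 to 0.999, and its normalisation and centring are not given in the sources used here.

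Median signals were background-corrected with normexp (offset 50) and loess-normalised within arrays in limma 3.58.1 (R 4.3.3). Outlier spots were left out, spots of a probe averaged, and 6236 probes kept whose synchronised signal stood well above background in every array of 1 or more groups. Each of the 66 genes had 1 probe. Names came from a RefSeq table of assembly R64, which matched 5737 of 6225 names, and no coordinates are given since the array annotation is older. Group means were fitted over all 32 arrays, with p values adjusted by Benjamini-Hochberg over 6205 genes at 0.05, and standard errors (SE) come from that fit. With 2 arrays a group, p values measure the spread between 2 courses of opposite dye, a number that limits the precision.

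The replicate number marks the dye orientation, per the labels, and was taken to mark the course. Deviations of replicate 1 from the group mean correlated with a median of 0.43 within WT (27 of 28 pairs over 0.1), 0.31 within 4P (25 of 28) and 0.33 between strains at the same time (7 of 8). The fit without this block is the main one, and the blocked value stands beside a result where it changes it. The alternatives were the scanner and deposited ratios, offset 10, median centring, no filter and a stricter filter, replicate and slide blocks, and leaving out each array. In a simulation of the contrast at 75 min over 5729 genes, 82% of genes changed by 1 log2 unit and 15% of those changed by 0.5 were recovered, with 4 false among 101 calls. Its noise was independent between arrays, unlike the correlated deviations given above, so these rates may not hold for the real arrays. Genes named were those with the 6 largest ranges in a strain among members past its test over time, the 4 smallest p values or largest differences between strains, the 3 highest and lowest at 0 min in WT, the 3 smallest ranges in WT, the 4 lowest correlations, MRP8 and 4 examples. The members and lists were chosen with earlier results of these data known.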

Additional observations from a re-analysis of the deposited data

Results flagged for a closer look

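Of the members named above, some moved one way from 1 time to another in both WT courses and the opposite way in both 4P courses. The genes and spans listed under this heading were picked by that rule, so their opposite signs are built in. How often such signs arise by chance in a search of many genes and spans was not tested. The share of all genes that meet the rule was not counted either, so the list alone does not show a difference between strains. The differences are given as 4P minus WT, and for these single spans they were not tested. From 0 to 15 min the difference was -0.67 for MRPL44, whose WT courses moved by 0.36 and 0.62 and whose 4P courses moved by -0.22 and -0.14. Over the same span it was -0.43 for MRPL20, -0.47 for MRPL39 and -0.32 for MRPL32, each with positive values in WT and negative ones in 4P. From 0 to 60 min it was -0.44 for MRPL22, with 0.22 and 0.11 in WT and -0.085 and -0.47 in 4P. The array at 0 min is part of each of these differences, and the 4P arrays at 0 min had member medians of -0.17 and 0.18.

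At 75 min against the mean of 60 and 90 min the difference between strains was 0.63 for MRPL32 and 0.70 for MRP21, with WT courses at or below -0.020 and 4P courses of 0.56 to 0.65. It was 0.28 for MRPL17. MRP4 went the other way by -0.37, with 0.24 and 0.087 in WT and -0.36 and -0.055 in 4P. The interaction test over all genes, which covers this span, called none of the members.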

How the results depend on the processing

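With the replicate number as a block, the members called were 32 over time in WT, 14 between strains at any time, 23 between strains at 75 min, 9 at 15 against 0 min in WT, 2 at 60 against 0 min in 4P, 13 at 75 against 0 min in WT and 1 at 75 min against 60 and 90 min in WT. The block changed no other count by over 1.5 times. With slide as a fixed block the counts were 26 over time in WT, 0 at any time, 0 at 75 min, 4 at 15 against 0 min in WT and 3 at 60 against 0 min in 4P. With slide as a random block they were 34 over time in WT, 0 at any time, 5 at 15 against 0 min in WT, 3 at 60 against 0 min in 4P and 1 at 75 min against 60 and 90 min in WT. The scanner's ratios gave 16 over time in 4P, 0 at any time, 15 at 75 min, 0 at 15 against 0 min in WT, 17 and 4 at 75 against 0 min in WT and 4P, and 19 and 1 against 60 and 90 min in WT and 4P. The deposited values gave 17, 1, 16, 0, 18, 4, 20 and 1 for the same results, and both rest on the processed signals described above. An offset of 10 gave 3 at 75 min. Median centring gave 7 over time in WT, 4 at 75 min, 1 at 15 against 0 min in WT, 0 at 60 against 0 min in 4P and 3 at 75 against 0 min in WT, and without the arrays of slide 1 there were 4 at 15 against 0 min in WT. The causes were not tested. Leaving out 1 array, which also unbalances the dyes, gave 9 to 20 over time in WT, 17 to 42 in 4P, 0 to 8 at any time, 0 to 10 at 75 min, and 0 to 2 between strains at 0 and at 105 min. It gave 0 to 5 and 0 to 3 at 15 against 0 min in WT and 4P, 0 to 8 at 60 against 0 min in 4P, 1 to 8 and 5 to 30 at 75 against 0 min in WT and 4P, and 0 to 1 and 4 to 35 against 60 and 90 min in WT and 4P. Counts between strains at 15, 30, 45, 60 and 90 min, of the course mean, of the interaction and at 60 against 0 min in WT stayed at 0 when 1 array was left out.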
